A study of Taeniopygia guttata with 5 samples.

Results

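To survey how transcript levels in the whole brain (WB) of the zebra finch differ between song learning and adulthood, the adult WB library (100 d) was set against the juvenile WB library (45 d). The comparison covered all 1800 transcripts that the deposited age table for WB lists, out of 4675 distinct transcripts listed in any of the 4 tables of the series. The series holds 5 RNA-Seq libraries from male zebra finches, of which 2 are WB libraries and 3 come from HVC, a forebrain nucleus that controls learned song. At 45 d the juveniles lived with their parents in family cages, and at 100 d the adults had been kept in group cages after leaving their parents. Birds that had neither sung nor heard song in the hour of observation before collection were used, and the sources name no treatment and no engineered allele. Each WB library pooled the RNA of a pair of brains, so there was 1 library at each age and bird-to-bird variation could not be measured.

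In juvenile songbirds the brain is still adding and wiring neurons, coating axons with myelin and trimming synapses while the bird practises its song. Whole brain RNA averages over neurons, astrocytes, oligodendrocytes, microglia, blood vessels, meninges and the ciliated lining of the ventricles. In such a mixture, fewer cells of a type and less RNA per cell cannot be told apart. Neuronal and glial markers were among the listed transcripts: the NMDA receptor subunit GRIN1 had 1663 and 957 reads (log2 ratio -0.53) and the astrocyte water channel AQP4 had 897 and 1016 reads (log2 ratio 0.45).

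In the adult brain, the interferon-induced ISG12 was 4.99-fold lower and the fibrinogen chain FGB was 9.51-fold lower than in the juvenile brain. All 7 listed members of the immature neuron and neurite outgrowth group, of 50 searched, had lower levels in the adult. So did all 9 listed genes of the glutamate postsynapse, of 70 searched, and all 7 listed markers of meninges and fibroblasts, of 38 searched. Most of these were lower by less than 2-fold. CRIPT, a listed postsynaptic gene that the glutamate group does not hold, was higher (log2 ratio 0.46). Transcripts were listed by the authors' p-value, so they were already picked for a difference. Of all 1800 listed, 55.4% had ratios below 0, and the median log2 ratio was -0.52. Rescaled on the median ratio of the listed transcripts, 4 of the 7, 8 of the 9 and 5 of the 7 stayed lower. Further members of these groups, not listed for WB age but counted in the tables comparing HVC with WB, had medians of -0.17 over 9, -0.062 over 2 and 0.11 over 2. Most listed ribosomal and respiratory chain genes were lower as well, 13 of 15 in each group (12 and 11 under that rescaling). The glycolytic ENO1 and LDHB and the receptor FGFR2 were among the genes higher in the adult.

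The study's PCR primers for 4 of the listed genes are shown because they define the amplified stretch of transcripts whose WB levels are described here: the interferon-induced ISG12, the invariant chain CD74, the secreted chemokine-like FAM19A1 and the chromatin protein PHF15. All are designed oligonucleotides written 5' to 3' in lower case.
ISG12 forward: ttaggcatatcctgagtttag
ISG12 reverse: taccctttgctgagtgttt
CD74 forward: ccgagcactctgcaataa
CD74 reverse: caacctccaacaacaccc
FAM19A1 forward: aggaggaacgtgtgaagttatag
FAM19A1 reverse: ccaggtagacaggagcattt
PHF15 forward: ttgggttcagggaggtt
PHF15 reverse: ccgtggcactggagaaa

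On the taeGut1 assembly, ISG12 lies at chr2:94975562-94980116, CD74 at chr13:6774624-6780143, FAM19A1 at chr12:16075500-16294190 and PHF15 at chr13:9970786-10031176. These are the intervals of the whole annotated transcripts in the deposited table, introns included, and the primers were not placed within them.

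Over the listed transcripts the juvenile library held 384336 reads and the adult library 358061. A transcript had a median of 81 reads over both libraries, from 5 to 66442. The log2 ratio compares reads at 100 d with reads at 45 d after each is divided by its relative library size, so that values above 0 are higher in the adult. Its 95% counting interval is exact (Clopper-Pearson) and covers counting error only. PCR copies were not removed by molecular identifiers, and the intervals leave out differences between birds. With 1 library a side no test was run, and no p-value is given. With 0 reads in 1 library, the ratio was computed with a floor of 3 counts in that library. The counting interval can still reach closer to equal levels than that ratio.

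The table is ordered by the authors' own p-value and ends after 1800 transcripts, and each listed log2 ratio was at least 0.42 or at most -0.43. Counts of listed members are therefore counts among transcripts already picked for a difference. An interval that excludes 0 is likewise partly a result of that choice, most of all at high read numbers. Of the 1800 transcripts, 317 were at least 2-fold higher in the adult (17.6%) and 428 were at least 2-fold lower (23.8%). Ratios above 0 were found for 802 transcripts (44.6%) and ratios below 0 for 998 (55.4%). The counting interval lay wholly above 0 for 612 transcripts (34.0%) and wholly below 0 for 708 (39.3%). These shares are the background against which each gene group is read, and the median log2 ratio of all listed transcripts was -0.52.

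Large ratios were concentrated among transcripts with few reads. Of the 344 transcripts with fewer than 20 reads in all, 143 were past 2-fold above and 165 past 2-fold below. Of the 254 with at least 500 reads, the counts were 3 and 7. Among the 1104 transcripts with at least 50 reads, the whole counting interval lay past 2-fold for 6 that were higher in the adult (0.543%) and for 17 that were lower (1.54%). The plot of ratio against read number shows this narrowing. With at least 50 reads, log2 ratios ran from -3.65 to 4.83 on unplaced sequence and from -3.25 to 1.62 on placed chromosomes. With at least 500 reads, the widest was that of ISG12 (-2.32), which is placed.

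**Figure D1:**
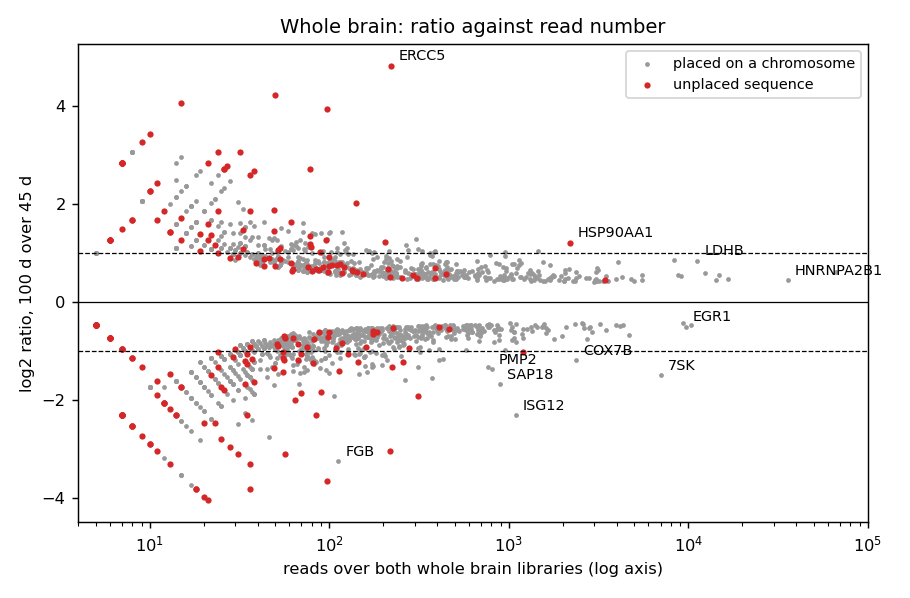
The log2 ratio of each of the 1800 listed transcripts (y axis, adult over juvenile) against its reads over both whole brain libraries (x axis, log scale). Grey points are transcripts placed on a chromosome, red points are the 211 on unplaced sequence, and the dashed lines mark 2-fold. The empty band around 0 is left by the authors' choice of transcripts, and ISG12, 7SK and ERCC5 stand out from transcripts of like read number.

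The relative library size was the number that links the deposited counts to the deposited fold changes, 1.20 for the juvenile library over the adult library. A scale from counts alone gave nearly the same number. It used the 707 transcripts that had WB counts at both ages in the tables comparing HVC with WB and that were not listed for WB age. Over the 700 of these with reads at both ages, the median ratio moved every log2 ratio by -0.0052. These transcripts were left out of the age list by the authors' p-value, which rests on the authors' own scaling. A median near equal levels at that scaling is therefore partly built in, and this scale is not an independent check. Rescaling on the median of the listed transcripts themselves would raise every log2 ratio by 0.53 and turn the direction of those between -0.53 and 0. The changed count is given below for some groups only, and a group without one can change too. Ion pumps, for example, would go from 2 above 0 and 4 below to 4 above and 2 below. The BMP group would go from 2 above and 3 below to 4 above and 1 below.

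A second question was how far 2 libraries of the same age and tissue differ. The only such pair was that of the 45 d HVC libraries. Over transcripts that appear in both tables comparing HVC with WB and have at least 50 reads in the pair compared, a minimum chosen after seeing the data, 3.14% of 732 were past 2-fold between the WB ages and 6.15% of 634 between the 2 juvenile HVC libraries. The SD of the log2 ratio was 0.41 for the WB ages and 0.53 for the HVC pair. Over these transcripts, then, the WB libraries of different age differed no more than did the HVC libraries of the same age. The transcripts were those the authors listed for HVC against WB at both ages. WB counts of both ages entered that choice, so the comparison cannot show how the spreads compare over all transcripts. The HVC pair was shallower, with a median of 270 reads over both libraries against 420.5 for WB. It also came from another tissue and sequencing run, with more birds in each pool.

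**Figure D2:**
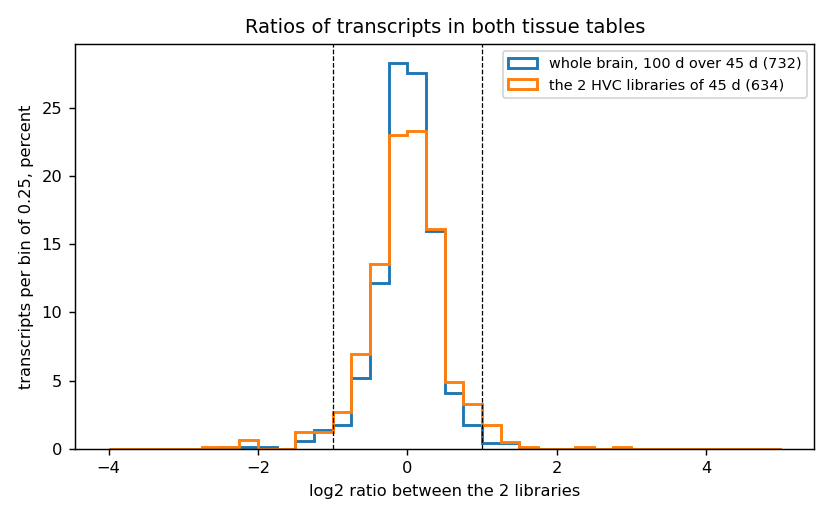
Distribution of log2 ratios over transcripts in both tables comparing HVC with WB that have at least 50 reads (x axis, bins of 0.25; y axis, percent of transcripts). The blue line is adult over juvenile whole brain (732 transcripts), the orange line compares the 2 juvenile HVC libraries (634 transcripts), and the dashed lines mark 2-fold. The HVC pair is the wider, with 6.15% past 2-fold against 3.14% for the whole brain ages.

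The widest differences with well-supported counts went mostly toward lower levels in the adult. ISG12, an interferon-induced mitochondrial protein in mammals, had 937 reads at 45 d and 156 at 100 d, a log2 ratio of -2.32 (95% counting interval -2.57 to -2.07). That is 4.99-fold lower in the adult brain. FGB, the fibrinogen beta chain of blood clotting, had 103 reads at 45 d and 9 at 100 d, a log2 ratio of -3.25 (95% counting interval -4.42 to -2.27). DYX1C1, a cilium assembly factor, had 87 reads at 45 d and 19 at 100 d, a log2 ratio of -1.93 (95% counting interval -2.73 to -1.20). All 3 lay on placed chromosomes, and their whole intervals lay past 2-fold.

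SAP18, a subunit of the Sin3 corepressor, had 708 reads at 45 d and 184 at 100 d, a log2 ratio of -1.68 (95% counting interval -1.92 to -1.44). MRPL40, a protein of the large mitochondrial ribosomal subunit, had 206 reads at 45 d and 57 at 100 d, a log2 ratio of -1.59 (95% counting interval -2.04 to -1.16). DNAJB5, a heat shock co-chaperone, had 289 reads at 45 d and 82 at 100 d, a log2 ratio of -1.55 (95% counting interval -1.92 to -1.19). For all 3 the whole interval lay past 2-fold, on the side of lower adult levels. PMP2, a lipid-binding protein of myelin, had 609 reads at 45 d and 195 at 100 d, a log2 ratio of -1.38 (95% counting interval -1.62 to -1.14). COX7B, a small subunit of cytochrome c oxidase, had 1734 reads at 45 d and 632 at 100 d, a log2 ratio of -1.19 (95% counting interval -1.32 to -1.06). Along with the noncoding RNAs 7SK and snoU2-30 described later, these made up the 10 transcripts with a gene symbol and at least 50 reads whose whole interval lay past 2-fold below. A further 5 with fewer reads did so too.

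Of the transcripts with a gene symbol and at least 50 reads, 2 had a whole interval past 2-fold above, and both lay on unplaced sequence. A further 4 with fewer reads did so too. The entry named ERCC5, a DNA repair endonuclease, had 9 reads at 45 d and 213 at 100 d, a log2 ratio of 4.83 (95% counting interval 3.88 to 5.98) and lies at chrUn:109623797-109626201 in that assembly's unplaced set. The entry named HSP90AA1, the inducible cytosolic HSP90 chaperone, had 750 reads at 45 d and 1449 at 100 d, a log2 ratio of 1.22 (95% counting interval 1.09 to 1.35). No second entry of either name was listed in the 4 tables, but unplaced sequence often holds near-identical copies of placed genes, so how reads were split between copies is uncertain for both.

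The 5 named genes with the most reads all had ratios above 0, well inside 2-fold. HNRNPA2B1, an RNA-binding protein of splicing and transport, had 16777 reads at 45 d and 19057 at 100 d, a log2 ratio of 0.45 (95% counting interval 0.42 to 0.48). PCSK2, which cleaves neuropeptide precursors, had 7786 and 8935 reads (log2 ratio 0.47). The helicase EIF4A2 of translation initiation had 6670 and 8106 reads (log2 ratio 0.55). TPT1, a growth-related protein, had 6647 and 7601 reads (log2 ratio 0.46), and the kinase HIPK2 had 5483 and 6857 reads (log2 ratio 0.59). At these read numbers their intervals were narrow and lay wholly above 0. Of the 254 listed transcripts with at least 500 reads, 148 (58.3%) had intervals wholly above 0 and 106 (41.7%) wholly below. At such depths an interval that excludes 0 comes with being listed, so it adds no support.

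**Figure D3:**
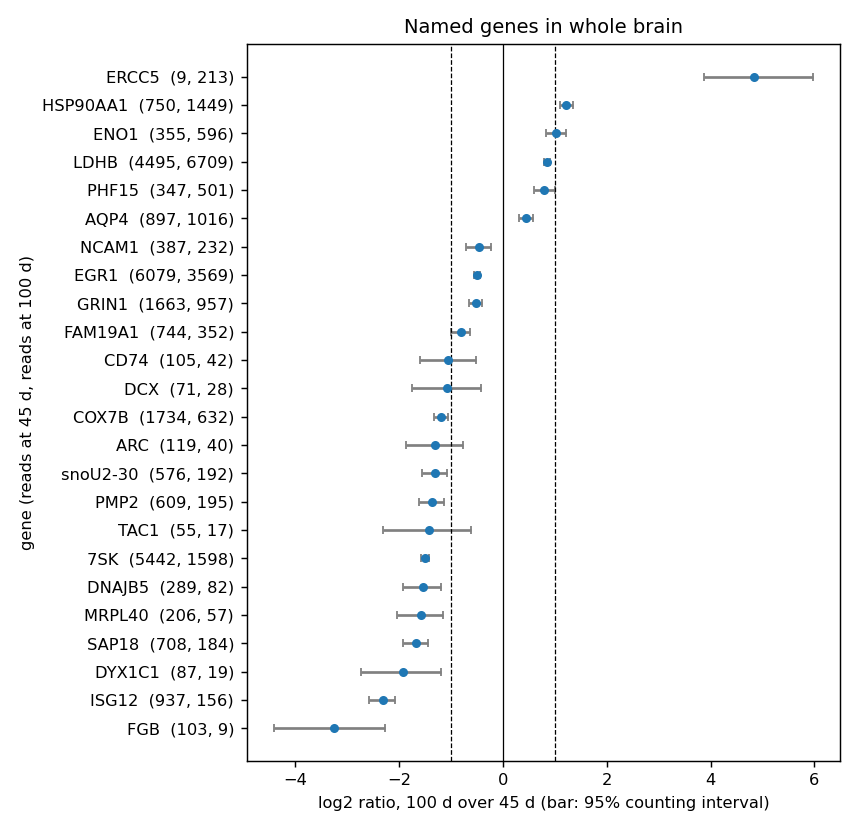
Log2 ratio, adult over juvenile whole brain, of 24 genes named in the text (x axis), with bars for the 95% counting interval and the reads at 45 d and at 100 d beside each symbol (y axis). Dashed lines mark 2-fold. ERCC5 at 4.83 and FGB at -3.25 are the outermost points, and both have wide bars because 9 reads were counted in their lower library.

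Immune genes differed in both directions. All 3 listed markers of microglia, the resident macrophages of the brain, were past 2-fold below. CD74, the invariant chain that escorts class II antigen-presenting molecules, had 105 reads at 45 d and 42 at 100 d, a log2 ratio of -1.05 (95% counting interval -1.61 to -0.52). LY86, a partner of a Toll-like receptor relative, had 12 and 1 reads (log2 ratio -3.32, interval -8.73 to -0.56), and the myeloid transcription factor SPI1 had 16 and 6 reads (log2 ratio -1.15), with an interval that included 0. Of all listed transcripts, 23.8% were at least 2-fold lower. That share was 48.0% with fewer than 20 reads and 44.3% with 20 up to 50, the ranges of LY86 and SPI1. The 3 markers summed to 133 reads at 45 d and 49 at 100 d, and the other 21 of the 24 microglia markers searched were not among the listed transcripts.

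Interferon response genes did not move as a block. Of 6 listed members of 55 searched, 4 had ratios above 0 and 2 below. B2M, the light chain of class I antigen-presenting molecules, had 15 and 28 reads (log2 ratio 1.17), and the interferon-induced IFIT5 had 8 and 25 reads (log2 ratio 1.91). Their intervals lay above 0, whereas those of ISG12 and CD74 lay below.

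Of the immune genes that the study named for HVC, 4 were listed for WB. FAM19A1 had 744 reads at 45 d and 352 at 100 d, a log2 ratio of -0.81 (95% counting interval -1.0 to -0.63). CD200, a surface protein of neurons that quiets microglia, had 5 reads at 45 d and 20 at 100 d, a log2 ratio of 2.27 (95% counting interval 0.81 to 4.04). CD200 was the single member of this group with a higher level in the adult. Because these genes were picked from the study's HVC libraries, the list is not independent of the series.

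Among glial groups, 4 of 25 myelin markers were listed, and 3 had ratios below 0, 2 of them with intervals wholly below 0. Together the 4 had 2552 reads at 45 d and 1287 at 100 d. Most of these reads came from a single member not named here, so the sums speak mainly to that gene. PMP2 is given above, and EVI2A had 21 and 8 reads (log2 ratio -1.12), with an interval that included 0. ASPA, an oligodendrocyte enzyme that breaks down N-acetylaspartate, had 52 and 63 reads (log2 ratio 0.54), also with an interval that included 0. Of 4 further myelin markers counted only in the tables comparing HVC with WB, 2 had intervals above 0 and none had an interval below it, and the median was 0.0043. Among them MBP, a major protein of myelin, had 4116 reads at 45 d and 4548 at 100 d (log2 ratio 0.41, interval 0.35 to 0.47). No marker of oligodendrocyte precursors was listed. Both listed astrocyte markers had ratios above 0: AQP4 had 897 reads at 45 d and 1016 at 100 d, a log2 ratio of 0.45 (95% counting interval 0.32 to 0.58) and the gap junction protein GJB6-2 had 18 reads at 45 d and 41 at 100 d, a log2 ratio of 1.46 (95% counting interval 0.62 to 2.34).

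All 7 listed markers of immature neurons and neurite outgrowth, of 50 searched, had ratios below 0 with intervals wholly below 0. Doublecortin (DCX), a microtubule protein of migrating neurons, had 71 reads at 45 d and 28 at 100 d, a log2 ratio of -1.07 (95% counting interval -1.76 to -0.42). TMSB10, a thymosin that binds actin monomers, had 69 reads at 45 d and 26 at 100 d, a log2 ratio of -1.14 (95% counting interval -1.85 to -0.47). The Eph receptor EPHA5, used in axon guidance, had 981 reads at 45 d and 577 at 100 d, a log2 ratio of -0.50 (95% counting interval -0.65 to -0.35), and the adhesion molecule NCAM1 had 387 reads at 45 d and 232 at 100 d, a log2 ratio of -0.47 (95% counting interval -0.71 to -0.23). The group median was -0.76 against -0.52 for all listed transcripts. Under rescaling on the listed median, 4 of the 7 kept a ratio below 0. A further 9 markers on this list had WB counts only in the tables comparing HVC with WB. Their median was -0.17, with none past 2-fold, against 0.0096 for all 707 transcripts of that kind.

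Axon guidance and immunoglobulin adhesion genes were mostly lower in the adult by small ratios. Of 8 listed guidance genes 6 had ratios below 0, among them SEMA5B, a semaphorin with 385 reads at 45 d and 220 at 100 d, a log2 ratio of -0.54 (95% counting interval -0.79 to -0.30). Of 6 adhesion genes 5 had ratios below 0, led in reads by NCAM2 with 2624 reads at 45 d and 1552 at 100 d, a log2 ratio of -0.49 (95% counting interval -0.58 to -0.40). The exception was SLITRK2, a synaptic adhesion protein, with 1081 and 1202 reads (log2 ratio 0.42). Members past 2-fold in these groups had few reads: the Nogo receptor relative RTN4RL1 had 3 and 8 reads (log2 ratio 1.68, interval -0.38 to 4.23) and the semaphorin SEMA4G had 7 and 1 reads (log2 ratio -2.54, interval -8.03 to 0.42), both with intervals that included 0. Rescaling on the listed median would leave 4 of the 8 and 3 of the 6 below 0.

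Cell cycle genes included members on both sides. Of 12 listed, 9 had ratios below 0, and 4 of those had intervals wholly below 0. POLA1, the catalytic subunit of DNA polymerase alpha, had 472 reads at 45 d and 285 at 100 d, a log2 ratio of -0.46 (95% counting interval -0.68 to -0.24), and the cyclin CCND2 had 177 reads at 45 d and 88 at 100 d, a log2 ratio of -0.74 (95% counting interval -1.13 to -0.36). The spindle checkpoint kinase BUB1B had 28 and 7 reads (log2 ratio -1.73), and RRM2, which makes deoxynucleotides, had 8 and 1 reads (log2 ratio -2.73, interval -8.20 to 0.17), with an interval that included 0. Against these, the spindle protein NUSAP1 had 27 and 46 reads (log2 ratio 1.04) and the kinesin KIF20A-1 had 4 and 18 reads (log2 ratio 2.44). Outside the list, ANLN had a log2 ratio of 0.29 (interval 0.017 to 0.57) and MCM6 one of 0.22, with an interval that included 0. The list of progenitor and neurogenic genes had 3 listed members. NEUROD6, a factor of postmitotic excitatory neurons rather than of progenitors in mammals, had 551 reads at 45 d and 320 at 100 d, a log2 ratio of -0.52 (95% counting interval -0.72 to -0.31), the RNA-binding protein IGF2BP3 had 194 and 108 reads (log2 ratio -0.58), and the receptor NOTCH1 had 15 and 28 reads (log2 ratio 1.17).

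The listed postsynaptic genes of glutamate signalling were lower in the adult by modest ratios. All 9 listed members of 70 searched had ratios below 0, and 7 had intervals wholly below 0. The group does not hold CRIPT, a postsynaptic scaffold-binding protein that was listed and went the other way. It had 166 and 190 reads (log2 ratio 0.46, interval 0.15 to 0.77). DLG3, a scaffold of NMDA receptors, had 2214 reads at 45 d and 1243 at 100 d, a log2 ratio of -0.56 (95% counting interval -0.67 to -0.46). GRIN1, the obligatory NMDA receptor subunit, had 1663 reads at 45 d and 957 at 100 d, a log2 ratio of -0.53 (95% counting interval -0.65 to -0.41). The group median was -0.62, and 8 of the 9 would stay below 0 under rescaling on the listed median. Of 2 members outside the list 1 was above 0, NETO1, an auxiliary protein of glutamate receptors, with 2399 and 2243 reads (log2 ratio 0.17, interval 0.087 to 0.25).

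Presynaptic genes were split. Of 11 listed, 7 had ratios below 0 and 4 above. The calcium sensor SYT2, found at fast-spiking synapses in mammals, had 112 reads at 45 d and 198 at 100 d, a log2 ratio of 1.09 (95% counting interval 0.75 to 1.44). By contrast, SYT12 had 29 and 5 reads (log2 ratio -2.27). SYT13 had 370 and 207 reads (log2 ratio -0.57) and the synuclein SNCB had 245 and 134 reads (log2 ratio -0.60). All 4 intervals excluded 0.

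Inhibitory and modulatory transmitter genes likewise gave ratios on both sides. The GABA-A receptor subunit GABRB1-2 had 53 reads at 45 d and 79 at 100 d, a log2 ratio of 0.84 (95% counting interval 0.32 to 1.37), whereas the chloride importer SLC12A2 had 1027 reads at 45 d and 587 at 100 d, a log2 ratio of -0.54 (95% counting interval -0.69 to -0.39) and the glycine receptor subunit GLRA4 had 30 and 12 reads (log2 ratio -1.05). PVALB-2, a calcium buffer of the parvalbumin family, had 734 and 826 reads (log2 ratio 0.44). The histamine receptor HRH3 had 48 reads at 45 d and 15 at 100 d, a log2 ratio of -1.41 (95% counting interval -2.35 to -0.55), while the dopamine receptor DRD5 had 52 and 65 reads (log2 ratio 0.59) and the serotonin-synthesizing TPH2 had 33 and 45 reads (log2 ratio 0.72). SLC18A2, the vesicular monoamine transporter, had 13 and 22 reads (log2 ratio 1.03), with an interval that included 0.

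Among 7 listed neuropeptide genes, the 3 past 2-fold were below. TAC1, which encodes substance P, had 55 reads at 45 d and 17 at 100 d, a log2 ratio of -1.43 (95% counting interval -2.30 to -0.62). VIP, the vasoactive intestinal peptide, had 43 reads at 45 d and 17 at 100 d, a log2 ratio of -1.07 (95% counting interval -1.97 to -0.23). NMU, the neuromedin U precursor, had 8 and 2 reads (log2 ratio -1.73, interval -5.01 to 0.59), with an interval that included 0. The granule protein CHGB had 219 and 122 reads (log2 ratio -0.58), in contrast to PCSK2 above. Of the pituitary markers CHGB alone was listed, and of the pineal and photoreceptor markers BEST1 alone.

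Both listed immediate early genes, whose transcription follows neuronal activity, were lower in the adult. ARC, an activity-regulated synaptic protein, had 119 reads at 45 d and 40 at 100 d, a log2 ratio of -1.31 (95% counting interval -1.86 to -0.78). EGR1, which song and singing induce in songbirds, had 6079 reads at 45 d and 3569 at 100 d, a log2 ratio of -0.50 (95% counting interval -0.56 to -0.44). The EGR1 ratio would turn to 0.03 under rescaling on the listed median, and ARC would stay at -0.78. Of 2 clock genes, CRY2 had 63 and 77 reads (log2 ratio 0.56) and the clock kinase CSNK1E had 481 and 293 reads (log2 ratio -0.45).

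Genes marking particular regions were few. Of 6 listed cerebellar markers, 5 had ratios below 0, and 3 of these had intervals wholly below 0. The giant cadherin FAT2 of granule cells had 869 reads at 45 d and 477 at 100 d, a log2 ratio of -0.60 (95% counting interval -0.76 to -0.43). LHX1 had 11 and 3 reads (log2 ratio -1.61, interval -4.09 to 0.31), with an interval that included 0. A further 14 cerebellar markers outside the list had a median of -0.068, with 5 above 0 and 9 below. Those above include PVALB-1, which had 0 reads at both ages, so its ratio reflects the library scale and measures nothing. In the striatum group, PDE10A, a phosphodiesterase of medium spiny neurons, had 801 reads at 45 d and 906 at 100 d, a log2 ratio of 0.45 (95% counting interval 0.31 to 0.58), and the forebrain factor SIX3 had 4 and 10 reads (log2 ratio 1.59), with an interval that included 0. GATA3, a factor of the midbrain and hindbrain, had 11 reads at 45 d and 27 at 100 d, a log2 ratio of 1.56 (95% counting interval 0.50 to 2.72). PAX5 had 0 reads at 45 d and 5 at 100 d, which is 2.01-fold higher when the floor stands in for the 0 reads. DACH2 had 664 and 370 reads (log2 ratio -0.58).

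Potassium channels were divided, with 4 of 10 above 0, including KCNIP4, a channel-interacting calcium sensor, with 311 and 397 reads (log2 ratio 0.62), and 6 below, including the leak channel KCNK1 with 270 and 150 reads (log2 ratio -0.58). Of 7 calcium channel genes 5 had ratios and intervals below 0. CACNA1G and CACNA1C, pore subunits of a T-type and an L-type channel, had 292 and 162 reads (log2 ratio -0.58) and 177 and 90 reads (log2 ratio -0.71). CACNA1H had 27 and 8 reads (log2 ratio -1.49) and CACNA2D4 had 21 and 4 reads (log2 ratio -2.12). Of 6 chloride channel genes 5 were below 0, led past 2-fold by CLCN1 with 27 and 4 reads (log2 ratio -2.49). BEST1 had 8 reads at 45 d and 0 at 100 d, which is 2.21-fold lower when the floor stands in for the 0 reads. Its counting interval reached up to a log2 ratio of -0.50. No sodium channel gene was listed.

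Ion pumps showed opposite ratios within the proton pump of vesicles. ATP6V1A, its catalytic subunit, had 3336 reads at 45 d and 4997 at 100 d, a log2 ratio of 0.85 (95% counting interval 0.79 to 0.91), whereas its membrane subunit ATP6V0B had 62 reads at 45 d and 22 at 100 d, a log2 ratio of -1.23 (95% counting interval -2.0 to -0.50). ATP2B2, a calcium pump of the plasma membrane, had 5749 reads at 45 d and 3537 at 100 d, a log2 ratio of -0.43 (95% counting interval -0.49 to -0.37).

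Solute carriers were split, with 14 of 27 listed members above 0 and 13 below. Their median was 0.47, but no listed ratio lies near 0, so its sign rests on that near-even split. Intervals lay wholly above 0 for 33.3% and wholly below 0 for 40.7%, against 34.0% and 39.3% of all listed transcripts. Of the 27 members, 9 were at least 2-fold higher in the adult and 2 at least 2-fold lower, against 17.6% and 23.8% of all listed transcripts. Most of the 9 had few reads, and 4 had intervals wholly above 0. SLC44A3, a choline transporter relative, had 142 reads at 45 d and 244 at 100 d, a log2 ratio of 1.05 (95% counting interval 0.74 to 1.36). SLC27A6, a fatty acid transporter, had 41 reads at 45 d and 79 at 100 d, a log2 ratio of 1.21 (95% counting interval 0.65 to 1.80). The zinc importer SLC39A8 had 17 and 30 reads (log2 ratio 1.09). On the scale of the summed listed counts, 4 members would be past 2-fold above and 5 below. The 19 solute carriers with WB counts only in the tables comparing HVC with WB had a median of -0.13. They include SLC5A8, whose WB count was 0 at both ages, so its ratio measures nothing.

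Cytosolic ribosomal proteins were mostly lower in the adult. Of 15 listed, 13 had ratios below 0, 9 with intervals wholly below 0, and the group median was -0.75. RPLP0, the stalk protein of the large subunit, had 462 reads at 45 d and 220 at 100 d, a log2 ratio of -0.80 (95% counting interval -1.04 to -0.57). RPLP2, another stalk protein, had 31 and 7 reads (log2 ratio -1.88). The member with the most reads went the other way: RPL9 had 1584 reads at 45 d and 1894 at 100 d, a log2 ratio of 0.53 (95% counting interval 0.43 to 0.62). Under rescaling on the listed median, 12 of the 15 would be below 0. A further 9 ribosomal protein transcripts had WB counts only in the tables comparing HVC with WB, with 5 below 0, 1 of them with its interval below 0, and a median of -0.23. Ribosomal protein genes have many near-identical pseudogene copies in vertebrates, and how reads were split between copies is uncertain.

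Nuclear-encoded subunits of the respiratory chain and ATP synthase gave a like picture. Of 15 listed, 13 had ratios below 0, 11 with intervals wholly below 0, and the median was -0.73, with 11 of the 15 below 0 under rescaling on the listed median. COX7B is given above, and COX7C had 32 and 5 reads (log2 ratio -2.41). ATP5B, the catalytic beta subunit of ATP synthase, had 107 reads at 45 d and 38 at 100 d, a log2 ratio of -1.23 (95% counting interval -1.80 to -0.68) from an entry on unplaced sequence. NDUFS6, a complex I subunit, was the exception past 2-fold, with 5 reads at 45 d and 23 at 100 d, a log2 ratio of 2.47 (95% counting interval 1.04 to 4.22). Of the 7 further members outside the list, 3 had ratios below 0, and their median was 0.11. No mitochondrially encoded transcript was listed.

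In energy metabolism, ENO1, a glycolytic enolase, had 355 reads at 45 d and 596 at 100 d, a log2 ratio of 1.02 (95% counting interval 0.82 to 1.21). LDHB, the lactate dehydrogenase subunit of oxidative tissues, had 4495 reads at 45 d and 6709 at 100 d, a log2 ratio of 0.85 (95% counting interval 0.79 to 0.90). Both intervals lay above 0, while isocitrate dehydrogenase IDH1 had 363 and 219 reads (log2 ratio -0.46) and malate dehydrogenase MDH1 had 20 and 6 reads (log2 ratio -1.47). Mitochondrial ribosomal proteins were split, with MRPS5 at 422 and 547 reads (log2 ratio 0.64) and MRPS14 at 440 and 503 reads (log2 ratio 0.46), against MRPL40 above and MRPL48 with 32 and 13 reads (log2 ratio -1.03).

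Protein synthesis and turnover showed no common direction. Of 6 translation factors 3 had ratios above 0 and 3 below. EIF4A2 is given above, and EEF1A2, the elongation factor of neurons and muscle, had 1046 reads at 45 d and 562 at 100 d, a log2 ratio of -0.63 (95% counting interval -0.78 to -0.48). Among 5 proteasome genes, PSMA4-1 had 155 and 221 reads (log2 ratio 0.78) and PSMB1 had 138 and 165 reads (log2 ratio 0.53). Of 23 ubiquitin ligase and deubiquitinase genes 14 had ratios below 0. The scaffold CUL1 had 1688 and 1895 reads (log2 ratio 0.43), and the ligase adaptor KLHL15 had 1639 reads at 45 d and 2403 at 100 d, a log2 ratio of 0.82 (95% counting interval 0.73 to 0.91). FBXO15 was the best covered of those past 2-fold, with 42 and 17 reads (log2 ratio -1.04).

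Of 8 listed heat shock and chaperone genes, HSP90AA1 was higher in the adult. The other 7 had ratios and intervals below 0, including the HSP90 co-chaperone CHORDC1 with 910 reads at 45 d and 534 at 100 d, a log2 ratio of -0.50 (95% counting interval -0.66 to -0.35) and HSPA2 with 264 and 152 reads (log2 ratio -0.53). Rescaling on the listed median would leave 5 of the 8 below 0. Of 3 members outside the list 2 had intervals below 0, and HSP90B1, the chaperone of the endoplasmic reticulum, had 4842 and 4457 reads (log2 ratio 0.15, interval 0.089 to 0.21).

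Splicing genes were divided, with 10 of 17 below 0. SNRPB, a core protein of spliceosomal particles, had 58 reads at 45 d and 22 at 100 d, a log2 ratio of -1.13 (95% counting interval -1.91 to -0.40), LSM1 had 30 and 11 reads (log2 ratio -1.18) and RBM38 had 23 and 7 reads (log2 ratio -1.45). The helicase DDX10 had 1438 and 1621 reads (log2 ratio 0.44). Chromatin genes were more often lower, with 12 of 15 below 0 and a median of -0.63, or 10 of 15 under rescaling on the listed median. The deacetylase HDAC10 had 16 and 3 reads (log2 ratio -2.15, interval -4.57 to -0.34) and the histone methyltransferase SETDB1 had 9 and 1 reads (log2 ratio -2.90, interval -8.36 to -0.05). The histone variant H2AFZ had 796 reads at 45 d and 957 at 100 d, a log2 ratio of 0.53 (95% counting interval 0.40 to 0.67) and PHF15 had 347 reads at 45 d and 501 at 100 d, a log2 ratio of 0.80 (95% counting interval 0.60 to 1.0), both higher in the adult.

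**Figure D4:**
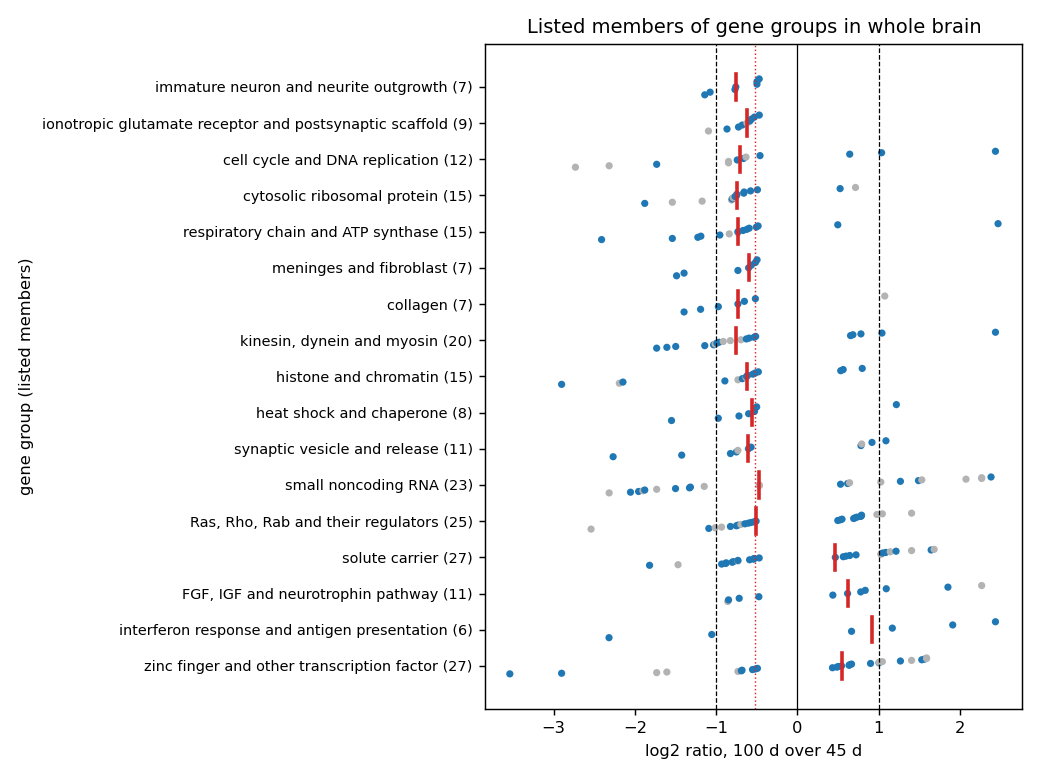
Log2 ratios, adult over juvenile whole brain, of the listed members of 17 gene groups (x axis; each point is a transcript, with the number listed beside the group name on the y axis). Blue points have a 95% counting interval that excludes 0 and grey points do not, red bars are group medians, the dotted red line is the median of all listed transcripts (-0.52) and the dashed lines mark 2-fold. Immature neuron and neurite outgrowth members and postsynaptic members all lie left of 0. Solute carriers, growth factor genes and transcription factors have medians above 0.

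Most listed extracellular matrix genes of the meninges and vessels were lower in the adult. All 7 listed meningeal and fibroblast markers of 38 searched had ratios and intervals below 0, and together they had 1589 reads at 45 d and 901 at 100 d. COL12A1, a fibril-associated collagen, had 841 reads at 45 d and 488 at 100 d, a log2 ratio of -0.52 (95% counting interval -0.68 to -0.35), and ALDH1A2, a retinoic acid synthesizing enzyme, had 423 reads at 45 d and 249 at 100 d, a log2 ratio of -0.50 (95% counting interval -0.73 to -0.27). The fibrillar collagen COL3A1 had 19 and 6 reads (log2 ratio -1.40) and the matrix protein FBLN1 had 27 and 8 reads (log2 ratio -1.49). COL4A1, the main collagen of vascular basement membrane, had 66 reads at 45 d and 24 at 100 d, a log2 ratio of -1.19 (95% counting interval -1.93 to -0.50), and its partner NID1 had 378 reads at 45 d and 214 at 100 d, a log2 ratio of -0.55 (95% counting interval -0.80 to -0.31). Of 7 collagens in all, 6 had ratios below 0, and COL23A1 had 8 and 14 reads (log2 ratio 1.08), with an interval that included 0. Under rescaling on the listed median, 5 of the 7 meningeal markers and 5 of the 7 collagens would be below 0. The 2 meningeal markers outside the list, OGN and THBS4, had log2 ratios of 0.20 and 0.014, with intervals that included 0. The study names ALDH1A2 among genes enriched in adult HVC, and its in situ hybridization showed THBS4 enriched in HVC at 45 d. Neither gene can therefore be read as a marker of meninges alone in this brain.

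In vessel walls, the smooth muscle myosin MYH11 had 79 reads at 45 d and 135 at 100 d, a log2 ratio of 1.04 (95% counting interval 0.63 to 1.46), whereas the pericyte markers ABCC9 and PDGFRB had 116 and 55 reads (log2 ratio -0.81) and 39 and 18 reads (log2 ratio -0.85). Erythrocyte genes were represented by RHAG alone, with 3 and 16 reads (log2 ratio 2.68, interval 0.88 to 5.10), and no globin was listed. Among muscle genes TNNT3, a fast troponin T, had 41 reads at 45 d and 5 at 100 d, a log2 ratio of -2.77 (95% counting interval -4.46 to -1.43), NEB had 56 and 23 reads (log2 ratio -1.02), and LDB3 had 56 and 25 reads (log2 ratio -0.90). The part of these other tissues in the WB ratios was not tested.

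Genes of the choroid plexus and ependyma, the ciliated lining of the ventricles, were evenly divided, with 5 of 10 above 0 and 5 below. The radial spoke protein RSPH1 of motile cilia had 211 reads at 45 d and 258 at 100 d, a log2 ratio of 0.56 (95% counting interval 0.29 to 0.83) and the choroid plexus potassium channel KCNJ13 had 103 and 127 reads (log2 ratio 0.57). The dynein DNAH9 had 22 and 6 reads (log2 ratio -1.61) and DNAI1 had 17 and 5 reads (log2 ratio -1.50). Among kinesins, dyneins and myosins, 15 of 20 had ratios below 0 and the median was -0.76, with 14 below 0 under rescaling on the listed median. DCTN3, a subunit of the dynein activator dynactin, had 69 reads at 45 d and 26 at 100 d, a log2 ratio of -1.14 (95% counting interval -1.85 to -0.47), the mitotic kinesin KIF15 had 32 and 13 reads (log2 ratio -1.03), and the myosin MYO16 had 1770 and 1016 reads (log2 ratio -0.53). Of the actin and tubulin genes, TUBB2A-3, a beta tubulin of neurons, had 1814 reads at 45 d and 897 at 100 d, a log2 ratio of -0.75 (95% counting interval -0.87 to -0.63). TUBB2A-2, an entry of the same symbol outside the list, had 23403 and 21247 reads (log2 ratio 0.13, interval 0.10 to 0.16). Of 12 actin and tubulin members outside the list, 6 had ratios above 0 and 6 below. The actin-severing CFL2, which was listed, had 2599 and 2933 reads (log2 ratio 0.44).

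Listed growth factor signalling genes leaned toward higher levels in the adult. Of 11 listed members of the FGF, IGF and neurotrophin group, 7 had ratios above 0, 6 with intervals wholly above 0, and the median was 0.62. The 2 members outside the list, FGF12 and VEGFA, had log2 ratios of 0.042 and 0.047, with intervals that included 0. FGFR2, a receptor of fibroblast growth factors, had 430 reads at 45 d and 613 at 100 d, a log2 ratio of 0.78 (95% counting interval 0.60 to 0.96). Its ligands FGF2, FGF9 and FGF10 had 22 and 39 reads (log2 ratio 1.09), 388 and 436 reads (log2 ratio 0.44) and 5 and 15 reads (log2 ratio 1.85). In the Notch pathway group the receptor NOTCH1 is given above, and the ligand DLL4 had 30 and 42 reads (log2 ratio 0.75). The HES family member HES6 had 1 and 8 reads (log2 ratio 3.27, interval 0.37 to 8.74), while the target HEY1 had 84 and 41 reads (log2 ratio -0.77). In the BMP pathway the effector SMAD9 had 28 reads at 45 d and 62 at 100 d, a log2 ratio of 1.41 (95% counting interval 0.75 to 2.11), the receptor ACVR1 had 222 and 130 reads (log2 ratio -0.50), and the inhibitory SMAD7 had 15 and 4 reads (log2 ratio -1.64), with an interval that included 0.

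Intracellular signalling families were mixed. Kinases of the MAP, PKC and CaM groups had 12 of 17 members below 0 (11 under rescaling on the listed median), among them CAMK4 on the Z chromosome with 2003 reads at 45 d and 1220 at 100 d. Of 10 members of this group outside the list, 7 had ratios above 0. Those above include MAP2K2, which had 1 read at 45 d and 0 at 100 d. Its ratio is above 0 only because the floor stands in for the 0 reads, so it shows no higher adult level. MAP3K7IP2 had 1452 and 1620 reads (log2 ratio 0.43). PRKCQ had 14 and 1 reads (log2 ratio -3.54, interval -8.94 to -0.82). Of 25 small GTPase genes and regulators, 12 had ratios above 0 and 13 below, with RAC1, a regulator of actin, at 809 and 970 reads (log2 ratio 0.53) and ARHGAP10 at 100 and 39 reads (log2 ratio -1.09). Phosphatases had 4 of 9 above 0, including PPP2CA with 486 and 560 reads (log2 ratio 0.47), and 5 below, including PTPN11 with 349 and 206 reads (log2 ratio -0.49).

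Transcription factors had a median of 0.54, with 17 of 27 listed members above 0. In this group 9 were at least 2-fold higher (33.3%) and 4 at least 2-fold lower (14.8%), against 17.6% and 23.8% of all listed transcripts. The members had a median of 38 reads. Of all listed transcripts with 20 up to 50 reads, 29.8% were at least 2-fold higher and 44.3% at least 2-fold lower. GATA3 is given above, ZBTB8 had 12 and 24 reads (log2 ratio 1.27) and ZNF821 had 10 and 24 reads (log2 ratio 1.53). The factor with the most reads went the other way: MEF2A, which links activity to transcription in neurons, had 3082 reads at 45 d and 1596 at 100 d, a log2 ratio of -0.68 (95% counting interval -0.77 to -0.59). A further 35 factors outside the list had a median of 0.069. Steroid and thyroid hormone genes gave 3 listed members, all below 0, with HSD17B12 at 590 reads at 45 d and 287 at 100 d, a log2 ratio of -0.77 (95% counting interval -0.98 to -0.57), the glucocorticoid-induced FKBP5 at 109 and 55 reads (log2 ratio -0.72) and AKR1D1, which reduces steroids, at 30 and 12 reads (log2 ratio -1.05). In lipid synthesis, 4 of 9 members were above 0, including CYP46A1, which turns over brain cholesterol, with 259 and 308 reads (log2 ratio 0.52), and FDFT1, the squalene synthase, was among those below with 577 and 328 reads (log2 ratio -0.55).

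Small noncoding RNAs included the transcript with the most reads. An unnamed entry annotated as a miRNA at chr1:11244677-11244764 (ENSTGUT00000019385) had 29201 reads at 45 d and 37241 at 100 d, a log2 ratio of 0.62. The study's inserts were longer than a mature miRNA, so these reads cannot be taken as mature miRNA. 7SK, which holds the elongation factor P-TEFb inactive, had 5442 reads at 45 d and 1598 at 100 d, a log2 ratio of -1.50 (95% counting interval -1.58 to -1.42). snoU2-30, a small nucleolar RNA, had 576 reads at 45 d and 192 at 100 d, a log2 ratio of -1.32 (95% counting interval -1.56 to -1.08), and SCARNA6, a guide RNA of Cajal bodies, had 130 reads at 45 d and 43 at 100 d, a log2 ratio of -1.33 (95% counting interval -1.86 to -0.82). snoU2_19 had 90 and 108 reads (log2 ratio 0.53). It lies at chr1:80117765-80117848, close to snoU2-30 at chr1:80117600-80117668, and the ratios of these neighbours go in opposite directions. Both spans are shorter than the study's inserts, so their reads cannot be taken as the mature small nucleolar RNAs. Of 23 listed small RNAs 8 were past 2-fold above and 10 below, mostly with few reads.

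Transcripts on unplaced sequence were past 2-fold more often than placed ones, and had fewer reads (medians of 35 and 95). Of 211 listed, 60 were at least 2-fold higher (28.4%) and 75 at least 2-fold lower (35.5%). Of the 1589 placed transcripts, 16.2% were higher and 22.2% lower by that much. With at least 50 reads, the shares were 17.0% and 23.9% of the unplaced and 5.3% and 8.5% of the placed. All 6 transcripts with at least 50 reads whose whole interval lay past 2-fold above were unplaced, and none of the 1016 placed transcripts with that many reads was. Aside from ERCC5, ENSTGUT00000017270 had 7 reads at 45 d and 90 at 100 d. In the other direction, ENSTGUT00000015287 had 91 and 6 reads, and ENSTGUT00000014460 had 199 and 20. The tables give these 3 no gene symbol. Their read numbers are well above the floor, but what these entries measure was not tested.

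Finally, the transcripts were followed in HVC, whose 3 libraries are not used in the WB ratio. Of the 1800 transcripts listed for WB age, 387 (21.5%) were also listed for HVC age, which is 21.5% of that list too. The ratio had the same direction in both tissues for 282 of the 387, with 123 higher and 159 lower in the adult in both. Among the 264 with at least 50 WB reads, 198 had the same direction. Both lists were picked by the authors for a difference with age, so this count has no unpicked background.

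ISG12 was lower in the adult in both tissues, with 2263 and 5818 reads in the juvenile HVC libraries and 290 in the adult HVC library (log2 ratio -3.81). CD74 had 77 and 29 reads in the juvenile HVC libraries and 17 in the adult HVC library (log2 ratio -1.65), and COL4A1 had 90 and 114 reads in the juvenile HVC libraries and 31 in the adult HVC library (log2 ratio -1.72). In the same direction but upward, ERCC5 had 8 and 3 reads in the juvenile HVC libraries and 45 in the adult HVC library (log2 ratio 3.03) and HSP90AA1 had 198 and 283 reads in the juvenile HVC libraries and 518 in the adult HVC library (log2 ratio 1.10). DCX had 81 and 102 reads in the juvenile HVC libraries and 40 in the adult HVC library (log2 ratio -1.20). For ISG12 and CD74 the reads of the juvenile HVC libraries differed from each other by more than 2-fold, and both lay above the adult library.

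The ratio had opposite directions in the tissues for 105 of the 387 transcripts, and for 66 of the 264 with at least 50 WB reads. TAC1, lower in the adult WB, had 10 and 11 reads in the juvenile HVC libraries and 67 in the adult HVC library (log2 ratio 2.67). SCARNA6 had 48 and 11 reads in the juvenile HVC libraries and 80 in the adult HVC library (log2 ratio 1.43), and IFIT5 had 12 and 19 reads in the juvenile HVC libraries and 4 in the adult HVC library (log2 ratio -1.96). ENO1 had 579 and 1002 reads in the juvenile HVC libraries and 459 in the adult HVC library (log2 ratio -0.79), against a higher WB level. CRIPT, a postsynaptic scaffold-binding protein, had 166 and 190 reads (log2 ratio 0.46) in WB and 183 and 381 reads in the juvenile HVC libraries and 126 in the adult HVC library (log2 ratio -1.17). Whether these differences between tissues exceed variation between birds was not tested.

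**Figure D5:**
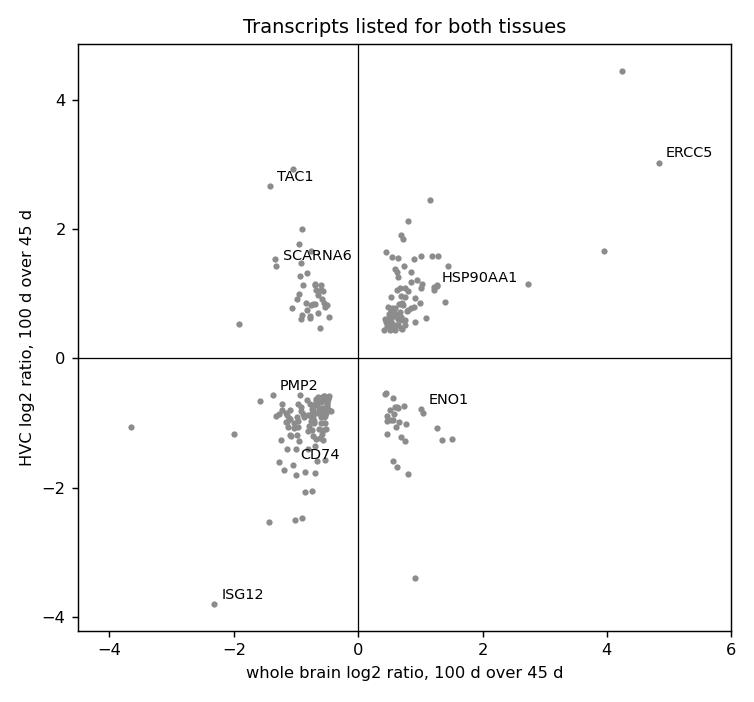
Log2 ratio, adult over juvenile, in HVC (y axis) against whole brain (x axis) for the 264 transcripts listed for both tissues with at least 50 whole brain reads. ISG12 lies at the lower left and ERCC5 at the upper right, while TAC1, SCARNA6 and ENO1 lie in the quadrants of opposite direction.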

How the data were processed

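Total RNA of whole brain and HVC from male zebra finches was made into NuGEN Ovation libraries and sequenced on an Illumina Genome Analyzer. The authors demultiplexed with Casava, mapped reads with ELAND2 to taeGut1 and compared ages with edgeR. The deposited tables hold raw read counts for 1800 transcripts each, beside the authors' log2 fold changes and p-values. Those deposited log2 values served only to recover the relative library size, constant over 1727 transcripts. How reads shared by copies were counted, and whether strand was used, is not given in the sources used here.

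Ratios and exact intervals were computed with scipy, and TMM factors with edgeR as an alternative; the interval was tested on simulated data. The members and the 66 gene lists were chosen with earlier results of these data known. Named genes were the 10 largest and 10 smallest ratios among symbols with at least 50 reads whose interval lay wholly past 2-fold (2 qualified above), for each list up to 4 members past 2-fold and 2 others by reads, genes the study names, and the 5 with the most reads. Entries without a symbol were chosen after their values were seen. Alternatives were other scalings, folds of 1.5 and 3, a minimum of 50 reads and gene sums. Some genes that this rule names are not reported here.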

Additional observations from a re-analysis of the deposited data

Results flagged for a closer look

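Of the named transcripts past 2-fold in whole brain that were also listed for HVC, 6 had the opposite direction against each of the juvenile HVC libraries. Most shared transcripts did not. Named or not, 56 shared transcripts were past 2-fold in whole brain with at least 50 reads there. Of these, 45 had the same direction in HVC and 11 the opposite, a count without an unpicked background. The difference between the tissues was not tested, as each whole brain age is 1 library. TAC1 had a log2 ratio of -1.43 in whole brain and 2.67 in HVC. NMU had -1.73 and 2.80, RPS6KA1, a kinase of ribosomal protein S6, had -1.22 and 1.87, and SCARNA6 had -1.33 and 1.43. IFIT5 had 1.91 in whole brain and -1.96 in HVC, and ENO1 had 1.02 and -0.79. NMU, RPS6KA1 and IFIT5 had fewer than 50 reads over both whole brain libraries.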

How the results depend on the processing

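The median log2 ratio of the listed transcripts was -0.52. It was -0.69 when libraries were scaled by the summed listed counts, and 0.0052 when they were scaled by the median ratio of the listed transcripts, which sets that median near 0 by its construction. Under the latter, 757 transcripts were past 2-fold above and 217 below (77.7% of those past 2-fold above, against 42.6%), and 18 of 221 named transcripts turned direction. Under the summed counts the split was 217 above and 547 below (28.4% above). TMM gave 342 and 378, and the counts-only scale 300 and 434, both within 1.5 times the reported 317 and 428. At 1.5-fold, 618 were above and 818 below, at 3-fold 131 and 205, and with at least 50 reads 69 and 107. Fewer transcripts pass a higher fold or minimum by construction. No listed transcript shared a gene identifier with another, so gene sums changed no value. No transcript past 2-fold turned direction under any of the 4 other scalings. Among transcripts of the tables that compare tissues, the share past 2-fold was 6.86% for the whole brain ages and 11.3% for the juvenile HVC pair, or 3.14% and 6.15% with at least 50 reads, a minimum chosen after seeing the data. No paired analysis was possible because each whole brain age has 1 library. Depth limits the low counts: at 9 reads in a library, as for FGB, the interval spans -4.42 to -2.27.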
